A study of Homo sapiens with 9 samples.

Results

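Imprinted genes were followed as a list of 35 gene symbols from 17 imprinted loci in H1, an established line of human embryonic stem cells. The members were taken by symbol, and all 35 were among the 40332 symbols of the count table. Of these, 29 passed the filter on low counts and stood among the 15179 genes tested. The other 6 were KCNQ1, ZIM2, USP29, PLAGL1, HYMAI and DIRAS3, which were too low to test. The study asked whether EZH2 and its complex hold pluripotent cells back from primitive endoderm. RNA was sequenced from 9 libraries of wild-type H1 cells, 3 in each of 3 culture groups. In the first group, cells from PXGL culture were kept in N2B27, a basal medium, with 5 µM EPZ-6438 for 3 days. EPZ-6438 blocks the methyltransferase activity of EZH2, the enzyme of Polycomb repressive complex 2 (PRC2), which places H3K27me3 on silent genes. The second group was in N2B27 alone, and the third was in PXGL, a medium that keeps human pluripotent cells naive by blocking MEK, tankyrase and protein kinase C in the presence of LIF. How long the N2B27 group was out of PXGL was not stated in the labels, so an effect of the inhibitor and one of the time out of PXGL cannot be told apart. A single cell line was used, and the labels do not say whether replicates came from separate cultures, so the p-values rest on differences between libraries that may be technical. The design text speaks of samples in triplicate and then of RNA-seq in duplicate, while 3 libraries a group are listed, and which holds was not settled.

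An imprinted gene is transcribed mainly from the copy inherited from a single parent. The choice is held by DNA methylation that differs between the parental copies at an imprinting control region, most often set in the egg, and methylated copies are guarded after fertilisation by zinc finger proteins such as ZFP57 and ZNF445 together with TRIM28. Naive human pluripotent cells have low DNA methylation genome-wide and are known to lose imprints in long culture, and in the mouse PRC2 silences some imprinted genes, in the placenta above all. The counts used here sum both parental copies and carry no information on allele, so a change of level is not a gain or loss of imprinting. In bulk samples, fewer cells expressing a gene and less RNA per cell cannot be told apart.

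Promoter windows were examined for 2 sequence features, as a description beside expression. RefSeq windows from 250 bases before to 50 bases after a start (assembly GRCh38.p14) were matched for 22 of the 35 members, with 50 distinct windows in all. CDKN1C, DLK1, IGF2, KCNQ1, KCNQ1OT1, MEG8, NNAT, PEG10, PEG3, PHLDA2, SGCE, SLC22A18 and ZIM2 had no entry. The hexamer TGCCGC, which ZFP57 binds when its CpG is methylated, was searched on both strands, where the other strand reads GCGGCA. It occurred in 20 of the 50 windows (40.0%), spread over 14 of the 22 members, against 16.7% of all 35116 windows of the same length. The windows of the list had a median of 18.5 CpG, against 14 over all windows. At least 20 CpG were found in 46.0% of the list's windows and in 41.2% of all windows. Windows with the same coordinates were counted once for the list, which was not done for all windows. Windows of a single gene also overlap or lie close together, so these shares are a description. The sequences below are printed for genes that the results turn on: GRB10, MAGEL2 and SNRPN for the inhibitor, NAP1L5 for the change of medium, and MEST as a member with no call in any comparison. They run 5′ to 3′ on the strand of the gene, and the hexamer on either strand is in capitals.
GRB10, 1 of its 5 windows, chr7:50793404-50793703, minus strand: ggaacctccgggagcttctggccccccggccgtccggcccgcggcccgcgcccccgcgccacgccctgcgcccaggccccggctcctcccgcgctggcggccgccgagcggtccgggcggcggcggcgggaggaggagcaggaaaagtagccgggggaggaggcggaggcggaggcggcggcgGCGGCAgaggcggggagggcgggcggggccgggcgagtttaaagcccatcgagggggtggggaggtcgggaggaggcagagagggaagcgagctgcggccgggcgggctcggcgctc
MAGEL2, chr15:23647818-23648117, minus strand: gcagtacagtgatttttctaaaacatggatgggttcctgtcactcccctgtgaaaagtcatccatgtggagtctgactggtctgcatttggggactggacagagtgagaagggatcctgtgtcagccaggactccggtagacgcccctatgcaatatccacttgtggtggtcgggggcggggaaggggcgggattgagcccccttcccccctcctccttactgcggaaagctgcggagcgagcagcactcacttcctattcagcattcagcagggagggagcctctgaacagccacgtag
SNRPN, 1 of its 4 windows, chr15:24954737-24955036, plus strand: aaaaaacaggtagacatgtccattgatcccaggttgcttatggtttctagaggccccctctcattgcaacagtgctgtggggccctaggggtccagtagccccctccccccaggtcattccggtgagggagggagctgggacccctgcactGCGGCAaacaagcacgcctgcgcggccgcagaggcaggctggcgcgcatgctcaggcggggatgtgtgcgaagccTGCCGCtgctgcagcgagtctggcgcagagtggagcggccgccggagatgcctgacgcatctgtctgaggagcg
NAP1L5, chr4:88697780-88698079, minus strand: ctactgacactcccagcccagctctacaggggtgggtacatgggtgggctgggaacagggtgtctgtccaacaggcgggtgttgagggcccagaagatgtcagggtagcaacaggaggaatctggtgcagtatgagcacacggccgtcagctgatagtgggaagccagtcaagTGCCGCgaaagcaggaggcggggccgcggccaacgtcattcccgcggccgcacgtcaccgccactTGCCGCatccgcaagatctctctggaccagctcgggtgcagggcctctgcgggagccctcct
MEST, 1 of its 5 windows, chr7:130491835-130492134, plus strand: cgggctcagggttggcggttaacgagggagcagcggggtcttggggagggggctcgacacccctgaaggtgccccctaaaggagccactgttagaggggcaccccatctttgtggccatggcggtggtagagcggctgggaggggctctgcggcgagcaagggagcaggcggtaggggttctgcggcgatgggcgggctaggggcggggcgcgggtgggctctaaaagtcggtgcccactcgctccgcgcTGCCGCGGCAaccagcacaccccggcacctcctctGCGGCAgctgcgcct
The GRB10 window held 44 CpG and 1 hexamer, and the MAGEL2 window held 9 CpG and none. The SNRPN window, which lies at the start shared with SNURF, held 18 CpG and 2 hexamers. The NAP1L5 window also held 18 CpG and 2 hexamers. The MEST window held 25 CpG and 3 hexamers, 2 of which overlap on opposite strands. A match says only that these letters are in the window.

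Total counts were 14719626 to 16479602 in N2B27 with EPZ-6438, 14482105 to 15295208 in N2B27 and 17499688 to 18358530 in PXGL, at which 3 counts were worth 0.163 to 0.207 CPM, the usual count scaled by library size. The first principal component, with 63.0% of the variance, separated the libraries of both N2B27 groups from those in PXGL. Replicate 1 of PXGL differed from its group. Its chi-square per degree of freedom was 19.6 against replicate 2 and 26.3 against replicate 3, while replicates 2 and 3 differed by 3.41. Members whose calls change without it are named beside the comparison.

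By level, the list was led by a few transcripts in every group. On a scale per length (RPKM, which is CPM divided by the exon length in kilobases), MEG3, SNRPN and MEST were the 3 highest members in each group. MEG3, a maternally expressed non-coding RNA, averaged 108 RPKM with EPZ-6438, 109 RPKM in N2B27 and 129 RPKM in PXGL. SNRPN, which encodes a splicing protein, averaged 79.1, 98.1 and 97.1 RPKM in the same order of groups. MEST, a paternally expressed gene for a hydrolase-like protein, averaged 34.7, 36.0 and 35.0 RPKM. IGF2, a fetal growth factor made from the paternal copy, was the lowest tested member in each group, at 0.25, 0.118 and 0.229 RPKM. Together the 35 members took 0.442% to 0.472% of counts with EPZ-6438, 0.454% to 0.464% in N2B27 and 0.444% to 0.540% in PXGL. MEG3 alone took 0.233% to 0.341% of a library. Of the 28 pairs of neighbours in the order of tested members, the library ranges lay apart in 14 pairs with EPZ-6438, 16 in N2B27 and 12 in PXGL, so the order of the others was within their spread. GNAS, INPP5F and NDN also stayed among the 7 highest in every group, and FAM50B, RTL1, SGCE and KCNQ1OT1 stayed under 1 RPKM in every group. These values depend on the annotated exon length, which is 91667 bases for KCNQ1OT1 and 20884 for SGCE, against 1948 for FAM50B. Before division by length, KCNQ1OT1 averaged 33.7 CPM with EPZ-6438, 35.7 CPM in N2B27 and 26.9 CPM in PXGL.

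**Figure D1:**
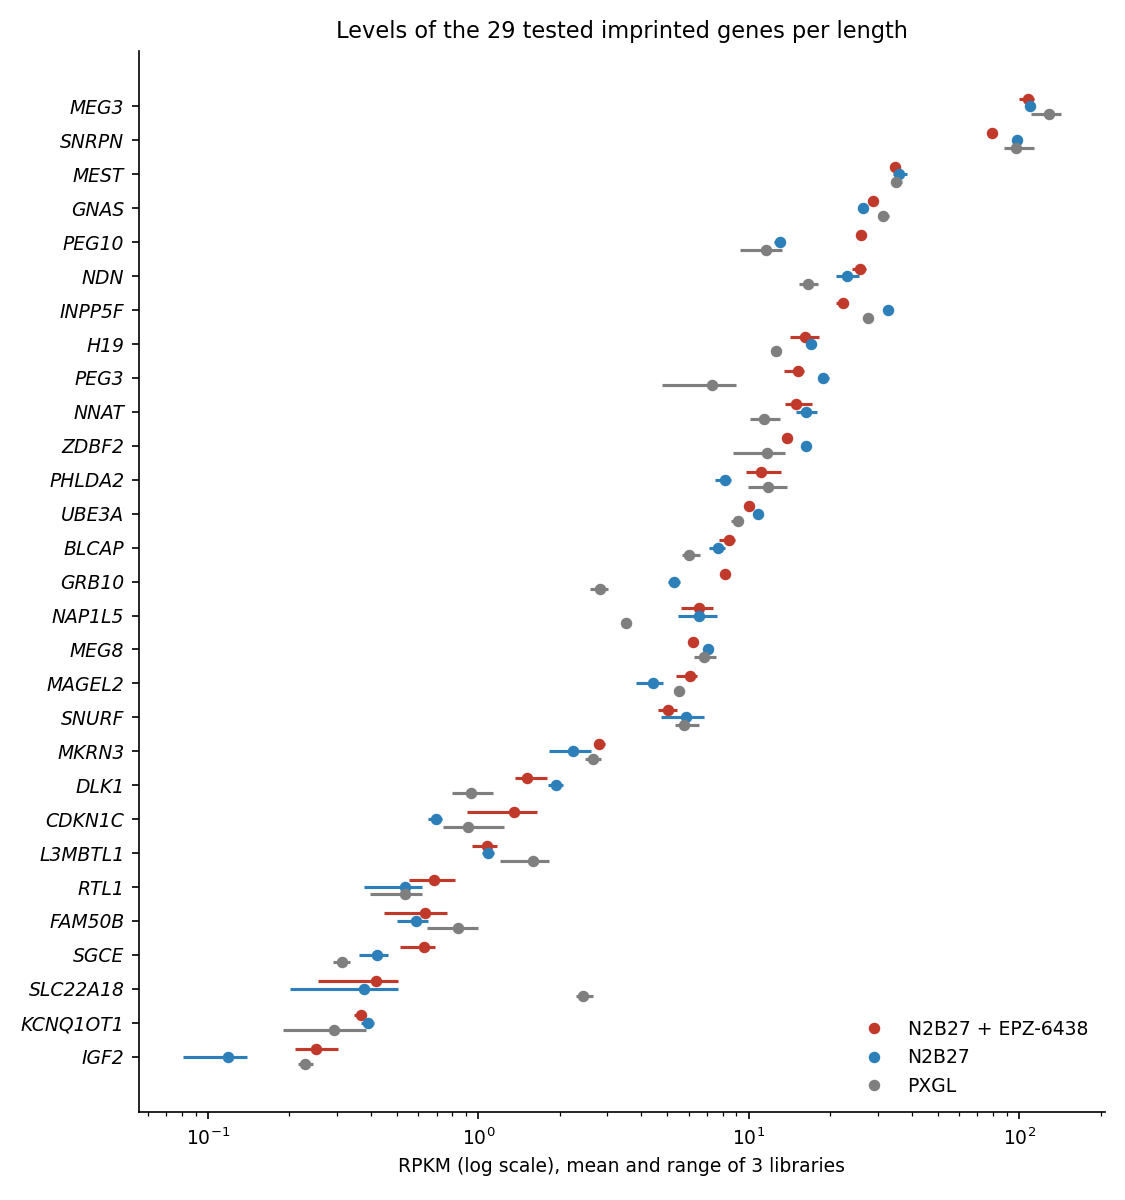
Level of the 29 tested imprinted genes in RPKM (log scale, horizontal axis), 1 row per gene ordered by the N2B27 + EPZ-6438 mean, with a dot for the mean and a line for the range of 3 libraries in N2B27 + EPZ-6438, N2B27 and PXGL from top to bottom of each row. MEG3, SNRPN and MEST lead in each group and IGF2 is last, and the PXGL dot of SLC22A18 lies to the right of both N2B27 groups at 2.44 RPKM.

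With EPZ-6438 in N2B27, 6 of the 29 tested imprinted genes were higher and 2 were lower than in N2B27 alone. The higher genes were PEG10 and SGCE, which share a locus, GRB10, MAGEL2, CDKN1C and IGF2. The lower genes were SNRPN and INPP5F. These 8 calls are 27.6% of the tested members, beside 24.7% of all tested genes, with 14.2% of all genes called higher and 10.6% called lower, so the share is near the background and is not a result about imprinted genes. The median log2 fold change was 0.01 over the members and 0.01 over all tested genes. A change of at least 2-fold was called for 1 of the 29 members, IGF2, beside 6.44% of all genes tested. The IGF2 call rests on few counts and was lost in most alternatives, while PEG10 fell just short of 2-fold at a log2 fold change of 0.998. A call is an adjusted p under 0.05 from edgeR's quasi-likelihood test with Benjamini-Hochberg adjustment over all genes tested, and the error of a log2 fold change is its standard error (SE).

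PEG10 had the smallest adjusted p among the genes called higher. It is a paternally expressed gene derived from a retrotransposon and needed for the placenta in mice. PEG10 had 173, 175 and 175 CPM in the EPZ-6438 libraries, against 89.1, 82.8 and 90.3 CPM in N2B27. The inhibitor libraries lay at nearly 1 level, and every one was above every N2B27 library. The log2 fold change was 1.0 (SE 0.10, adjusted p = 1.26e-06), and PEG10 was the only member that passed a test for a change beyond 1.5-fold, with adjusted p = 0.00214, beside 4.77% of all genes. The neighbouring SGCE, which encodes a sarcoglycan of the cell membrane, starts within the same region on the opposite strand. SGCE had 10.7, 14.4 and 14.1 CPM with EPZ-6438, against 7.52, 9.21 and 9.67 CPM in N2B27, with no overlap. Its log2 fold change was 0.57 (SE 0.16, adjusted p = 0.0122). The SGCE call was lost without N2B27 replicate 1 (adjusted p = 0.0706) and without inhibitor replicate 2 or 3 (0.0655 and 0.0582). In the annotation the first exons of PEG10 (chr7:94656325-94669695, plus strand) and SGCE (chr7:94524204-94656572, minus strand) overlap, and reads there cannot be told apart, since the strandedness of the counting is unknown.

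GRB10, an adaptor that restrains insulin and growth factor signalling, is expressed from the paternal copy in neurons and from both or the maternal copy elsewhere. It had 78.8, 78.2 and 82.8 CPM with EPZ-6438, against 51.7, 49.3 and 54.3 CPM in N2B27. The groups lay well apart, and the log2 fold change was 0.63 (SE 0.08, adjusted p = 1.45e-05). MAGEL2, a paternally expressed gene of the Prader-Willi region that acts in protein trafficking, had 27.3, 23.2 and 27.9 CPM with EPZ-6438, against 20.1, 20.7 and 16.5 CPM in N2B27. Its groups did not overlap either (log2 fold change 0.45, SE 0.11, adjusted p = 0.00688), and the call was just lost without N2B27 replicate 3 (adjusted p = 0.0501).

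The remaining increases were in genes with few counts. CDKN1C, a maternally expressed inhibitor of the cell cycle, had 4.09, 2.25 and 3.73 CPM with EPZ-6438, against 1.81, 1.62 and 1.73 CPM in N2B27. The inhibitor libraries were higher and more scattered (log2 fold change 0.96, SE 0.31, adjusted p = 0.0314). The CDKN1C call was lost without any single N2B27 library and without inhibitor replicate 1 or 3, where the adjusted p was 0.0732 to 0.136. IGF2 had 1.68, 1.46 and 2.10 CPM with EPZ-6438, against 0.975, 0.563 and 0.934 CPM in N2B27. Its groups did not overlap (log2 fold change 1.07, SE 0.37, adjusted p = 0.0436), but the call was lost without any single library of either group, with adjusted p of 0.0538 to 0.145, and with the DESeq2 test (0.0659). H19, the non-coding neighbour that is expressed from the opposite parental copy to IGF2, had 52.7, 41.2 and 46.1 CPM with EPZ-6438 and 49.3, 48.2 and 49.6 CPM in N2B27. The H19 groups overlapped and the gene was not called (adjusted p = 0.599). IGF2 also shares exons with INS-IGF2 and with the antisense IGF2-AS, so its reads carry that uncertainty.

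SNRPN and INPP5F were lower with the inhibitor. SNRPN, paternally expressed from the control region of the Prader-Willi locus whose promoter window is printed above, had 274, 264 and 272 CPM with EPZ-6438, against 339, 334 and 332 CPM in N2B27. All inhibitor libraries were below all N2B27 libraries (log2 fold change -0.31, SE 0.08, adjusted p = 0.00947), and the call was just lost without inhibitor replicate 2 (adjusted p = 0.0503). SNURF, which is read from the same transcripts, had 5.43, 6.39 and 5.83 CPM with EPZ-6438 and 7.10, 5.55 and 8.0 CPM in N2B27, with overlap and no call. The division of reads between SNRPN, SNURF and the host transcript SNHG14 is uncertain because their exons overlap. INPP5F, an inositol phosphatase with an imprinted variant described in the brain, had 161, 176 and 173 CPM with EPZ-6438, against 247, 255 and 247 CPM in N2B27. The groups lay far apart relative to their spread (log2 fold change -0.56, SE 0.06, adjusted p = 4.31e-06). Within the Prader-Willi and Angelman locus, MAGEL2 was thus called higher and SNRPN lower, while NDN, MKRN3, SNURF and UBE3A were not called.

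**Figure D2:**
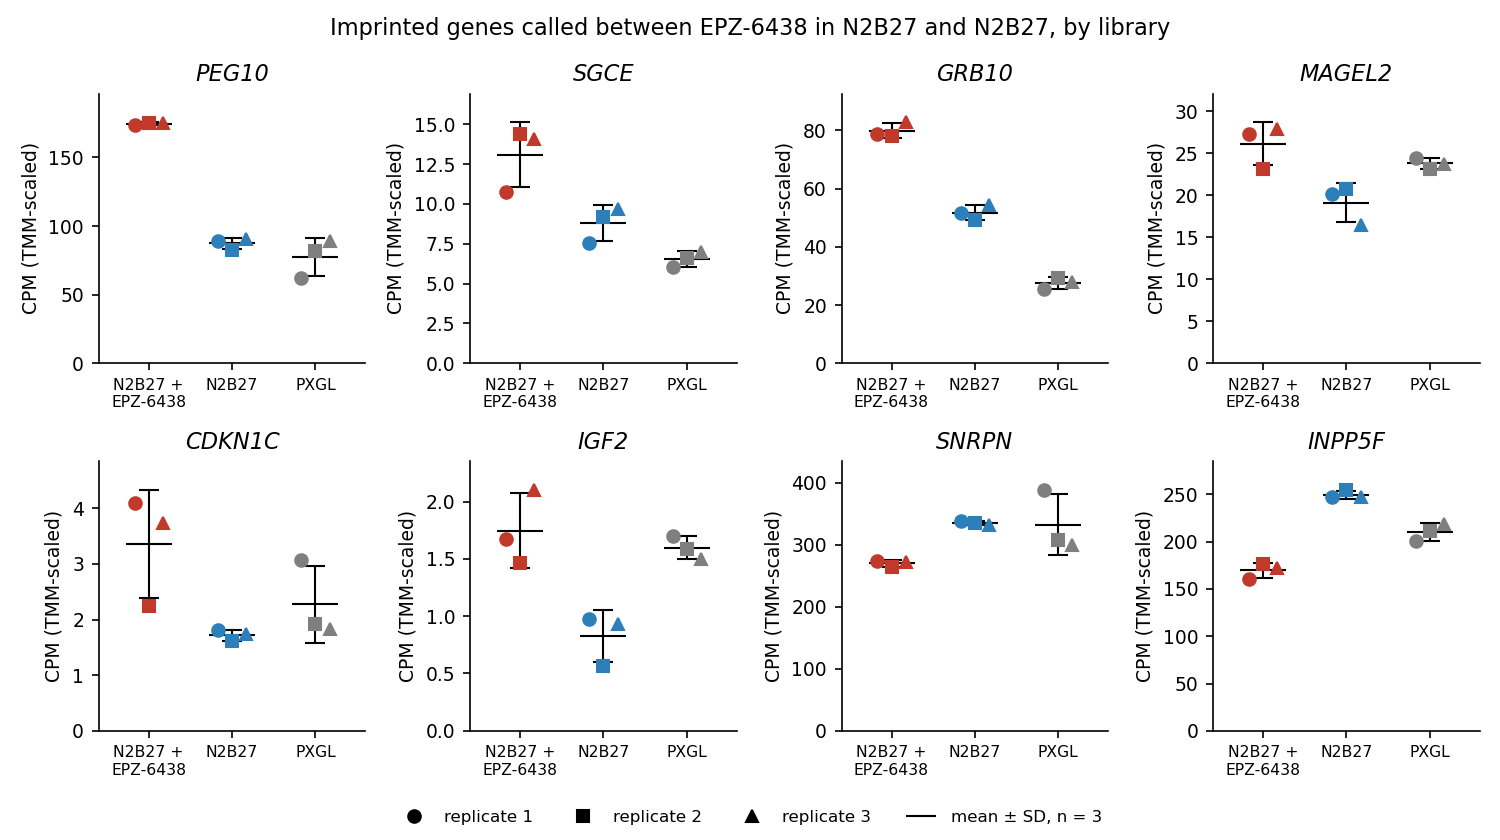
Level in CPM (scaled by TMM, vertical axes from 0) of the 8 imprinted genes called between N2B27 + EPZ-6438 and N2B27, with 1 point per library, its shape giving the replicate number, and the mean ± SD of 3 libraries for N2B27 + EPZ-6438, N2B27 and PXGL from left to right. PEG10 sits at 173 to 175 CPM with the inhibitor and under 100 CPM in the other groups, while SNRPN and INPP5F are lowest with the inhibitor.

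A further 8 members were not called although their libraries did not overlap between the inhibitor and N2B27. How often libraries lay apart over all tested genes was not computed, so this count is not a result about imprinted genes. PHLDA2, a maternally expressed gene that limits placental growth, had 12.5, 9.30 and 9.97 CPM with EPZ-6438, against 8.22, 7.95 and 7.14 CPM in N2B27 (adjusted p = 0.0575). PEG3, a paternally expressed zinc finger gene, had 132, 156 and 156 CPM with EPZ-6438, against 178, 181 and 193 CPM in N2B27 (adjusted p = 0.258). ZDBF2, another paternally expressed zinc finger gene, had 150, 155 and 149 CPM with EPZ-6438, against 172, 177 and 185 CPM in N2B27 (adjusted p = 0.176). The others were DLK1, MEG8, MKRN3, UBE3A and GNAS, with adjusted p of 0.0784 to 0.197. The spread that sets these p-values is shared by all 3 groups and includes PXGL replicate 1. Without that library, an alternative chosen after seeing the data, 9 members were called higher and 6 lower of 31 tested, beside 37.2% of all genes. With only the 2 groups compared in the fit, 9 were higher and 6 lower, beside 38.7% of all genes. Without the library, PEG3 (adjusted p = 1.84e-05), ZDBF2 (1.82e-05), MEG8 (0.00986) and UBE3A (0.0383) were then lower. GNAS (0.00314), PHLDA2 (0.0194) and MKRN3 (0.0362) were then higher. MKRN3 was also called higher without N2B27 replicate 2 (adjusted p = 0.0382). In the other direction, leaving out N2B27 replicate 1, N2B27 replicate 3 or inhibitor replicate 3 left 3 members called higher and 2 lower of 31 tested. In those fits 17.8%, 18.1% and 18% of all genes were called in either direction.

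Of the untested members, USP29, a paternally expressed peptidase gene of the PEG3 locus, had 8, 4 and 13 counts with EPZ-6438, against 0, 2 and 2 counts in N2B27 and 5, 0 and 1 counts in PXGL. Summed over libraries, 25 counts stood against 4, a depth-adjusted ratio of 5.91 (95% exact Poisson interval 2.04 to 23.4, which covers counting error only). KCNQ1 had 1, 0 and 0 counts with EPZ-6438, 0, 0 and 1 in N2B27, and 7, 0 and 0 in PXGL, so that 7 of its 9 counts came from PXGL replicate 1. HYMAI had at most 1 count in any library. ZIM2, PLAGL1 and DIRAS3 had at most 17 counts in any library, with overlapping ranges between the inhibitor and N2B27.

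Between N2B27 alone and PXGL, 12 imprinted genes were higher in N2B27 and 7 were lower. The higher genes included PEG3, DLK1, GRB10 and NAP1L5, and SLC22A18 fell the most. The 19 calls are 65.5% of the tested members, beside 56% of all tested genes (27.3% higher and 28.7% lower). The median log2 fold change was 0.05 over the members and -0.03 over all tested genes. Calls of at least 2-fold numbered 3 of the 29 members, beside 18.3% of all genes tested.

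SLC22A18, a maternally expressed transporter of the KCNQ1OT1 domain, had 2.30, 2.67 and 1.07 CPM in N2B27, against 12.6, 12.2 and 14.2 CPM in PXGL. Every N2B27 library lay far below every PXGL library, with a log2 fold change of -2.69 (SE 0.26, adjusted p = 2.42e-07), or 6.46-fold lower. It overlaps SLC22A18AS on the opposite strand, from which its reads cannot be separated. PHLDA2, in the same domain, was also lower, with 8.22, 7.95 and 7.14 CPM in N2B27, against 13.3, 10.96 and 9.5 CPM in PXGL, and did not overlap (log2 fold change -0.53, SE 0.16, adjusted p = 0.0101). CDKN1C, maternally expressed like both, was not called at 1.81, 1.62 and 1.73 CPM in N2B27, against 3.07, 1.92 and 1.83 CPM in PXGL (adjusted p = 0.290). KCNQ1OT1, the paternal non-coding RNA that silences this domain on its own copy, had 33.8, 37.7 and 35.6 CPM in N2B27, against 17.3, 28.2 and 35.1 CPM in PXGL. Its groups overlapped, PXGL replicate 1 was the low library, and it was not called (log2 fold change 0.41, adjusted p = 0.0702). The value was 0.17 without PXGL replicate 1 (adjusted p = 0.101) and 0.65 without PXGL replicate 3, where it was called higher (adjusted p = 0.00144), as it was with the DESeq2 test (adjusted p = 0.0429).

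PEG3 had 178, 181 and 193 CPM in N2B27, against 46.7, 79.0 and 87.6 CPM in PXGL. All N2B27 libraries were above all PXGL libraries, and the log2 fold change was 1.37 (SE 0.19, adjusted p = 0.000162). Without PXGL replicate 1 it was 1.14 (adjusted p = 2.67e-16). DLK1, a paternally expressed membrane protein related to the ligands of NOTCH, had 9.61, 10.3 and 10.9 CPM in N2B27, against 4.22, 4.71 and 6.0 CPM in PXGL. These groups did not overlap, and the log2 fold change was 1.05 (SE 0.17, adjusted p = 7.65e-05). MEG3, on the maternal copy of the DLK1 locus, had 2613, 2509 and 2490 CPM in N2B27, against 2572, 3086 and 3313 CPM in PXGL. It was called lower (log2 fold change -0.24, SE 0.08, adjusted p = 0.0214) although the ranges overlapped. The call was lost without N2B27 replicate 2 or 3 or PXGL replicate 2 or 3, with adjusted p of 0.0677 to 0.0869. MEG8 and RTL1, from the maternal and paternal copy of that locus, were not called.

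NAP1L5, a paternally expressed gene named for its likeness to nucleosome assembly proteins, had 14.6, 12.4 and 10.5 CPM in N2B27, against 6.58, 6.74 and 6.94 CPM in PXGL. The groups did not overlap (log2 fold change 0.89, SE 0.16, adjusted p = 0.000132). GRB10 had 51.7, 49.3 and 54.3 CPM in N2B27, against 25.4, 29.5 and 27.9 CPM in PXGL, with every N2B27 library higher (log2 fold change 0.91, SE 0.08, adjusted p = 7.18e-08). NDN, a paternally expressed regulator of neuronal growth in the Prader-Willi region, had 43.9, 40.6 and 49.3 CPM in N2B27, against 34.8, 31.3 and 29.7 CPM in PXGL. NDN was higher without overlap (log2 fold change 0.48, adjusted p = 0.000337). MAGEL2, in the same region, was lower at log2 fold change -0.32 (adjusted p = 0.0223), with 20.1, 20.7 and 16.5 CPM in N2B27, against 24.5, 23.2 and 23.8 CPM in PXGL. This call was lost without N2B27 replicate 3 (adjusted p = 0.133). H19 was higher (0.43 on the log2 scale, adjusted p = 0.000737), with 49.3, 48.2 and 49.6 CPM in N2B27, against 38.2, 36.4 and 34.9 CPM in PXGL. IGF2 was lower (-0.95 on the log2 scale, adjusted p = 0.0374), with 0.975, 0.563 and 0.934 CPM in N2B27, against 1.70, 1.59 and 1.5 CPM in PXGL. The IGF2 call was lost in 5 of the 6 fits that left out a library of either group, and the largest adjusted p was 0.126, without N2B27 replicate 2. It was also lost with the DESeq2 test (adjusted p = 0.0710).

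The other higher genes had smaller changes. NNAT, a paternally expressed small membrane protein, and BLCAP, in whose intron it lies, were both higher, by 0.52 and 0.36 on the log2 scale (adjusted p = 0.00234 and 0.00226). NNAT had 19.9, 23.8 and 21.4 CPM in N2B27, against 17.4, 14.5 and 13.5 CPM in PXGL. UBE3A, the ubiquitin ligase lost in Angelman syndrome and imprinted in neurons, was higher by 0.25 (adjusted p = 0.00250), ZDBF2 by 0.47 (adjusted p = 0.00348) and INPP5F by 0.25 (adjusted p = 0.00244). SGCE was higher by 0.43 (adjusted p = 0.0335), a call lost without N2B27 replicate 2 or 3 or PXGL replicate 1 or 2 (adjusted p of 0.0643 to 0.125). Of the lower genes, GNAS, which encodes the stimulatory G protein alpha subunit, fell by 0.25 (adjusted p = 0.00174). L3MBTL1, a chromatin-compacting protein made from the paternal copy, fell by 0.56 (adjusted p = 0.00316). It had 17.8, 16.0 and 16.7 CPM in N2B27, against 18.7, 28.3 and 27.54 CPM in PXGL, where replicate 1 came close to the N2B27 libraries. Without PXGL replicate 1 the log2 fold change of L3MBTL1 was -0.73 and that of ZDBF2 was 0.30, both still called. MKRN3, not called with all libraries, was called lower without N2B27 replicate 2 (adjusted p = 0.0360), and PEG10 was called higher without PXGL replicate 3 (log2 fold change 0.28, adjusted p = 0.0155). MEST had 164, 170 and 184 CPM in N2B27 and 177, 161 and 166 CPM in PXGL, with a log2 fold change of 0.04 and no call.

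**Figure D3:**
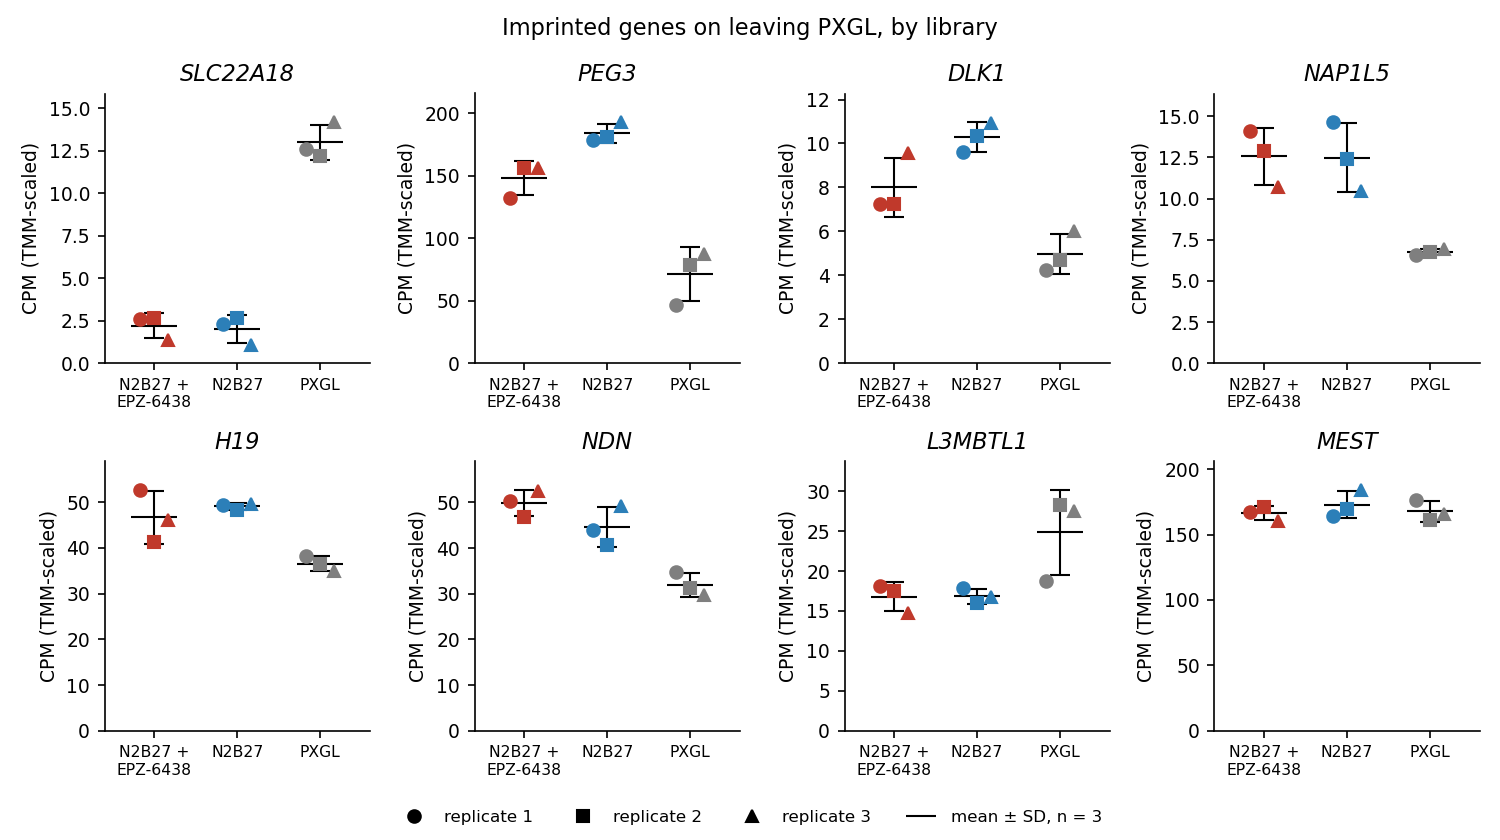
Level in CPM (scaled by TMM, vertical axes from 0) of SLC22A18, PEG3, DLK1, NAP1L5, H19, NDN, L3MBTL1 and MEST, with 1 point per library, its shape giving the replicate number, and the mean ± SD of 3 libraries for N2B27 + EPZ-6438, N2B27 and PXGL from left to right. SLC22A18 lies under 3 CPM in both N2B27 groups and above 12 CPM in PXGL, PEG3 is higher in both N2B27 groups, and MEST is level in all 3 groups.

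Set against PXGL, the cells in N2B27 with EPZ-6438 had 10 members higher and 5 lower. These 15 calls are 51.7% of the tested members, beside 56.1% of all tested genes. This comparison shares its libraries with the others, so its values are given side by side only. GRB10 had the largest increase, at 78.8, 78.2 and 82.8 CPM with EPZ-6438, against 25.4, 29.5 and 27.9 CPM in PXGL (log2 fold change 1.53, SE 0.08, adjusted p = 8.65e-11). The level in N2B27 alone lay between them. PEG10 was higher by 1.17 (SE 0.10, adjusted p = 3.67e-08), with 173, 175 and 175 CPM with EPZ-6438, against 62.1, 81.6 and 88.8 CPM in PXGL, and was not called between N2B27 alone and PXGL. PEG3 was higher by 1.06 (SE 0.19, adjusted p = 0.000887), with 132, 156 and 156 CPM with EPZ-6438, against 46.7, 79.0 and 87.6 CPM in PXGL. None of these ranges overlapped. Without PXGL replicate 1 the PEG10 and PEG3 values were 1.03 and 0.83. SLC22A18 was lower at 2.62, 2.68 and 1.36 CPM with EPZ-6438, against 12.6, 12.2 and 14.2 CPM in PXGL (log2 fold change -2.54, SE 0.26, adjusted p = 3.52e-07). SGCE, NAP1L5, DLK1, NDN, BLCAP, NNAT and H19 were higher by 0.35 to 1.0 on the log2 scale. MEG3, SNRPN, L3MBTL1 and INPP5F were lower, with log2 fold changes of -0.26, -0.30, -0.56 and -0.31. The MEG3 ranges overlapped, and its call was lost without PXGL replicate 3 (adjusted p = 0.0539) or inhibitor replicate 1 (0.0871). The NNAT call was lost without PXGL replicate 2 or 3 or inhibitor replicate 2 (adjusted p = 0.0505, 0.0574 and 0.0949). Other members gained a call when a single library was left out. CDKN1C was called higher without PXGL replicate 1 (log2 fold change 0.83, against 0.55 with all libraries, adjusted p = 0.0304) or inhibitor replicate 2 (0.0394). MEG8 was called lower without PXGL replicate 1 (-0.16, adjusted p = 0.0308) or PXGL replicate 2 (0.0480). Without PXGL replicate 3, KCNQ1OT1 and ZDBF2 were called higher (adjusted p = 0.00401 and 0.0170) and GNAS lower (0.0478).

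Grouped by the parental copy from which they are known to be expressed, 7 tested members were maternal, 18 paternal and 4 dependent on isoform or tissue. UBE3A was counted as maternal, although it is imprinted in neurons and its expressed copy in these cells is not known here. With EPZ-6438 against N2B27, 1 maternal gene was higher and none lower, 4 paternal genes were higher and 1 lower, and 1 of the isoform- or tissue-dependent genes was called in each direction. The calls are 14.3% of the maternal and 27.8% of the paternal genes tested, beside 24.7% of all genes (14.2% higher and 10.6% lower). The median log2 fold change was -0.02 for maternal and 0.00 for paternal genes, beside 0.01 for all tested genes. For N2B27 against PXGL, 2 maternal genes were higher and 3 lower, while 7 paternal genes were higher and 3 lower, which is 71.4% and 55.6% of those tested beside 56% of all genes (27.3% higher and 28.7% lower). The 2 maternal genes called higher were H19 and UBE3A, so the maternal counts and median depend on the class given to UBE3A. The medians were -0.24 for maternal and 0.11 for paternal genes, beside -0.03 for all tested genes. The difference between the allele classes was not tested. Of 12 tested members with a promoter at a maternally methylated germline region, 3 were higher and 1 lower with EPZ-6438 against N2B27, and of the 17 others also 3 were higher and 1 lower, or 33.3% and 23.5% called beside 24.7% of all genes. For N2B27 against PXGL the first class had 5 higher and 1 lower, and the others 7 higher and 6 lower, or 50% and 76.5% called beside 56% of all genes. The difference between these classes was not tested either.

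**Figure D4:**
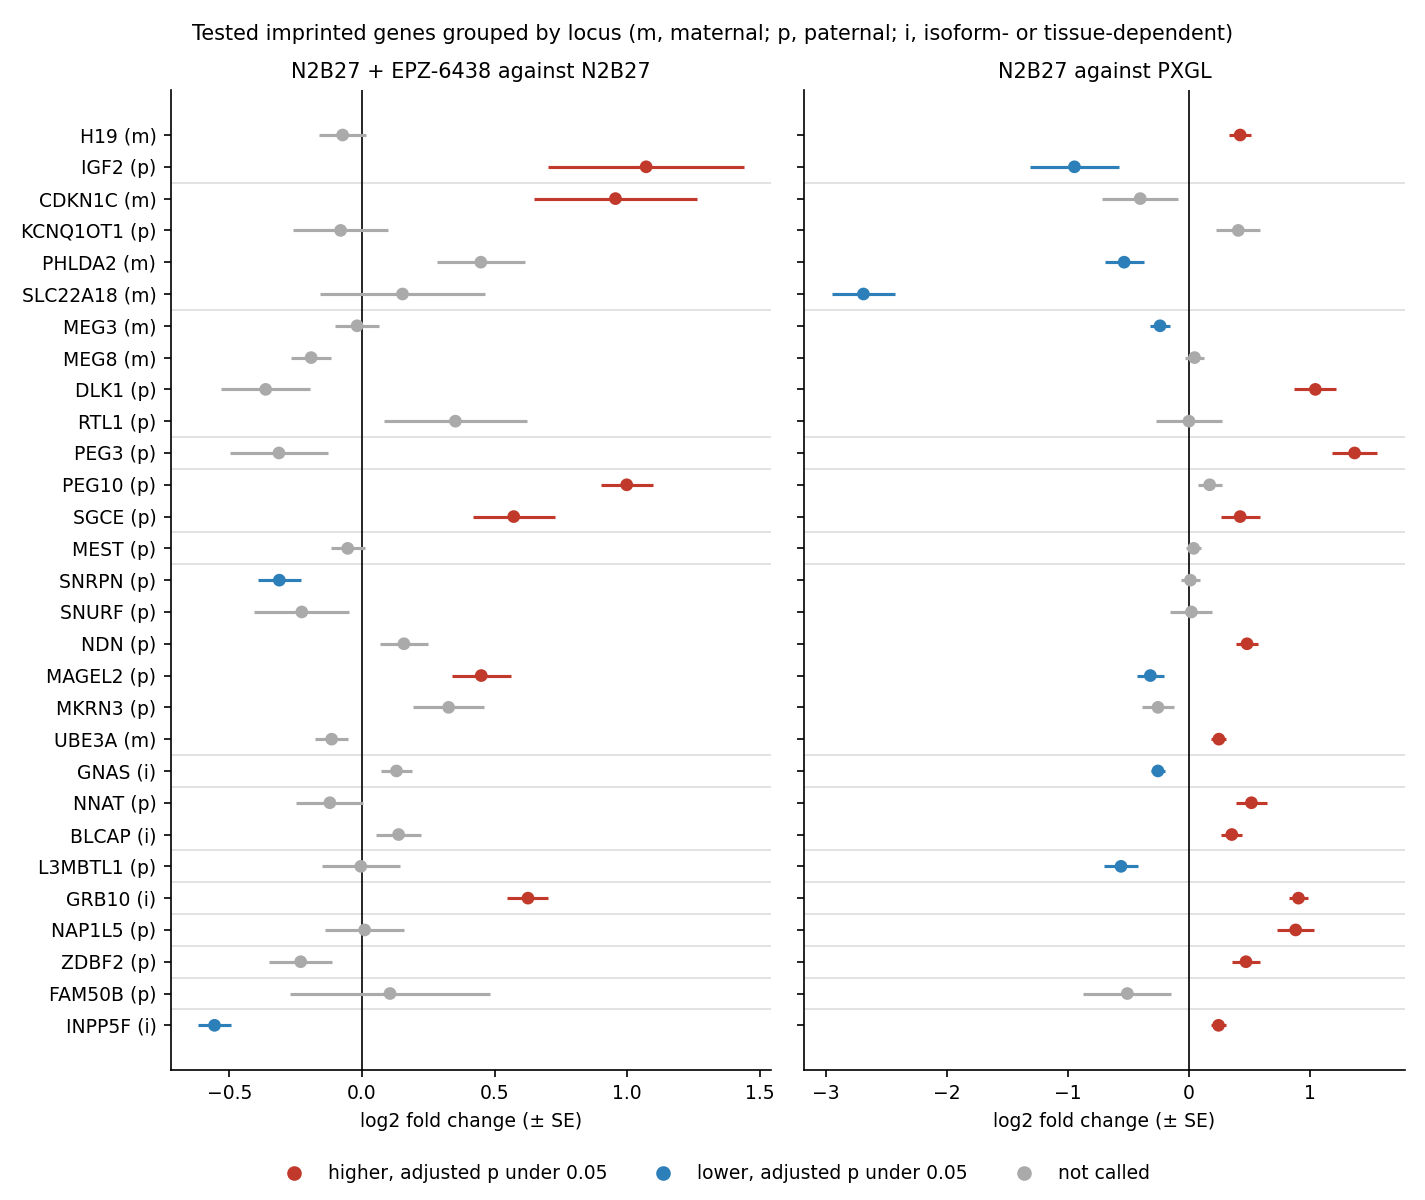
Log2 fold change ± SE (horizontal axis) of the 29 tested imprinted genes, grouped by locus with grey lines between loci, for N2B27 + EPZ-6438 against N2B27 on the left and N2B27 against PXGL on the right. Red points were called higher, blue points lower and grey points not called, and m, p and i mark maternal, paternal and isoform- or tissue-dependent expression. UBE3A, imprinted in neurons, is marked m. SLC22A18 stands out on the right at -2.69, and PEG10, at 1.0, and SGCE are the pair of neighbours called higher on the left.

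Calls by locus rest on few genes each and are given as a description, beside 24.7% of all genes called with EPZ-6438 against N2B27. Both PEG10 and SGCE were higher with EPZ-6438 against N2B27. In the KCNQ1OT1 domain CDKN1C alone was called higher of 4 tested genes, on few counts, and its call was lost without any single N2B27 library. No member of the DLK1-MEG3 locus was called with the inhibitor, with log2 fold changes of -0.36 to 0.35 over 4 genes. Of the loci with a single tested member, MEST, GNAS, L3MBTL1, NAP1L5, ZDBF2, FAM50B and PEG3 had no call, GRB10 was higher and INPP5F lower.

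Within PXGL, replicate 1 differed from replicates 2 and 3 over genes as a whole, as given above, and in some of the imprinted genes. Of the 29 tested members, 6 were under 75% of the mean of replicates 2 and 3, and 3 were over 125% of it. The same counts over all tested genes were not made, so these are not a result about imprinted genes. KCNQ1OT1 stood at 54.6%, PEG3 at 56.0%, RTL1 at 65.7%, ZDBF2 at 66.4%, L3MBTL1 at 67.0% and PEG10 at 72.9%. CDKN1C stood at 164%, PHLDA2 at 130% and SNRPN at 128%. The share of counts in ribosomal protein genes was 7.22% in this library, against 5.92% and 5.51% in the other PXGL libraries, and its part in these differences was not tested. Without replicate 1, SNRPN was called higher in N2B27 than in PXGL (log2 fold change 0.14, adjusted p = 0.00172), where it had a log2 fold change of 0.01 with all libraries.

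**Figure D5:**
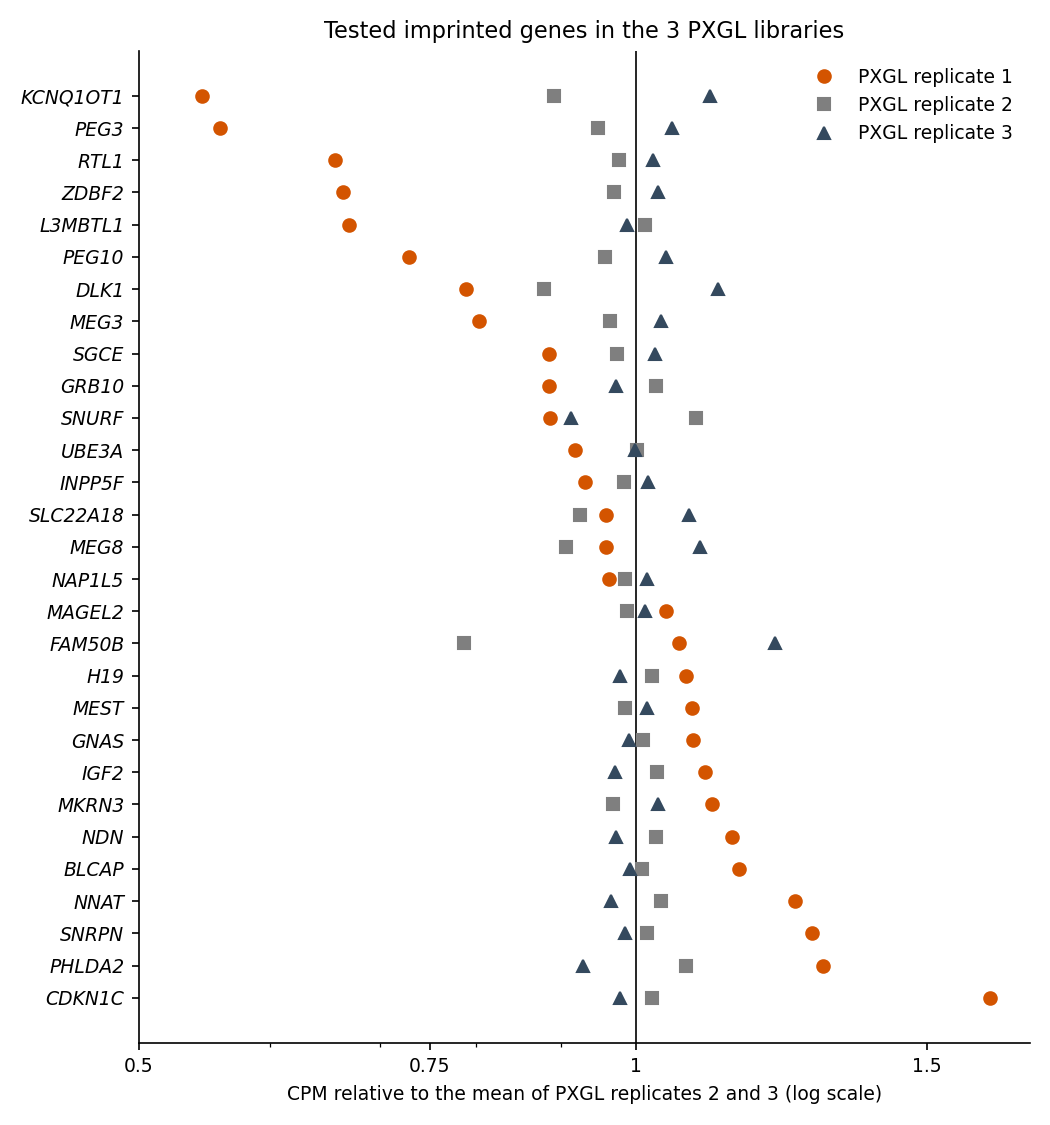
CPM of the 29 tested imprinted genes in each PXGL library relative to the mean of PXGL replicates 2 and 3 (log scale, horizontal axis), 1 row per gene. Replicate 1 runs from 54.6% of that mean at KCNQ1OT1 to 164% at CDKN1C.

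Transcripts of genes whose proteins set, read or keep imprints were compared between the same groups. Of 30 listed regulators, 29 were tested, and 7 were higher and 12 lower with EPZ-6438 against N2B27, which is 65.5% of those tested beside 24.7% of all genes. For N2B27 against PXGL, 9 were higher and 10 lower, 65.5% beside 56% of all genes. With EPZ-6438 against PXGL, 5 were higher and 11 lower, 55.2% beside 56.1%. The share thus stood above the background for the inhibitor against N2B27 and near it for both comparisons with PXGL. The list was chosen with earlier results of these data known. These shares are therefore a description and not a result about regulators as a class. ZFP57, which binds the hexamer marked above, had 91.5, 91.1 and 93.6 CPM with EPZ-6438, 104, 106 and 111 CPM in N2B27 and 66.7, 49.6 and 49.8 CPM in PXGL. It was not called for the inhibitor (adjusted p = 0.101) and was higher in N2B27 than in PXGL (log2 fold change 0.95, SE 0.09, adjusted p = 2.82e-07). ZNF445, which acts beside ZFP57, was not called for the inhibitor and was lower in N2B27 than in PXGL by a log2 fold change of -0.78 (adjusted p = 3.90e-05). TRIM28, the corepressor that both recruit, was called in neither comparison. DNMT1, which copies methylation at replication, was lower with EPZ-6438 (-0.22, adjusted p = 0.0201) and higher in N2B27 than in PXGL (0.35, adjusted p = 0.000239). Its partner UHRF1 was lower with EPZ-6438 (-0.45, adjusted p = 8.63e-05) and lower in N2B27 than in PXGL (-0.18, adjusted p = 0.0232). DPPA3, which keeps UHRF1 from chromatin, was lower with EPZ-6438 (-0.23, adjusted p = 0.0387) and not called between N2B27 and PXGL.

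Among the regulators, DNMT3B, an enzyme of new methylation, and TET2, an enzyme of its removal, had the smallest adjusted p for EPZ-6438 against N2B27 and for N2B27 against PXGL. DNMT3B had 311, 339 and 350 CPM with EPZ-6438, 922, 910 and 898 CPM in N2B27 and 287, 339 and 347 CPM in PXGL. The N2B27 libraries stood far above both other groups, with log2 fold changes of -1.45 for the inhibitor against N2B27 and 1.49 for N2B27 against PXGL (adjusted p = 7.03e-10 and 4.63e-11). TET2, which oxidises methylcytosine, showed the opposite order at 19.1, 18.5 and 17.3 CPM with EPZ-6438, 3.48, 3.02 and 3.27 CPM in N2B27 and 18.3, 25.2 and 26.8 CPM in PXGL. Its log2 fold changes were 2.49 for the inhibitor against N2B27 and -2.84 for N2B27 against PXGL (adjusted p = 1.33e-08 and 3.07e-10). DNMT3A was lower with the inhibitor (-0.54) and higher in N2B27 than in PXGL (0.88), and DNMT3L, the cofactor of both that lacks catalytic activity, was higher (0.71) and lower (-1.0). KHDC3L, a gene of the maternal complex of eggs, was lower with EPZ-6438 (-0.57), and NLRP7, another such gene, was lower in N2B27 than in PXGL (-0.73). TET3, from the family of TET2, was higher with EPZ-6438 than in PXGL (1.23, SE 0.16, adjusted p = 9.81e-06). PADI6, a gene of the maternal complex named after its values were seen, had the lowest fitted log2 fold changes of the regulators against PXGL, -2.56 with EPZ-6438 and -3.43 in N2B27 (adjusted p = 0.00143 and 0.000355), on few counts. It had 3, 1 and 4 counts with EPZ-6438, 2, 1 and 1 in N2B27 and 22, 22 and 14 in PXGL. Of the PRC2 core genes with EPZ-6438 against N2B27, EZH2 and EED were higher (0.20 and 0.49) and SUZ12 lower (-0.21), and the EZH2 transcript itself was not lowered. EPZ-6438 acts on the protein, and H3K27me3 was not analysed here.

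Markers of cell state moved with the same groups. The summed level of 6 core pluripotency genes was 3294 to 3372 CPM with EPZ-6438, 4045 to 4100 CPM in N2B27 and 2901 to 3201 CPM in PXGL. With EPZ-6438, 5 of them were called lower than in N2B27, and 2 higher and 2 lower than in PXGL. In N2B27 alone, 2 were called higher and 1 lower than in PXGL. Of all genes tested, 24.7% were called with EPZ-6438 against N2B27, 56.1% with EPZ-6438 against PXGL and 56% for N2B27 against PXGL. The 6 primed markers summed to 239 to 247, 517 to 532 and 23.5 to 24.7 CPM, with all 6 higher in N2B27 than in PXGL and, with EPZ-6438 against N2B27, 4 lower, ZIC2 higher (log2 fold change 1.23) and DUSP6 not called. The 8 naive markers summed to 2524 to 2581, 2332 to 2345 and 2942 to 3449 CPM, but did not move together. With EPZ-6438, 5 were called higher and 2 lower than in N2B27, and 3 higher and 5 lower than in PXGL. In N2B27 alone, 4 were called lower than in PXGL and none higher. Mesendoderm markers summed to 129 to 140, 18.1 to 21.4 and 9.11 to 10.96 CPM, and all 4 were higher with EPZ-6438 than in N2B27. The 6 hypoblast markers summed to 35.8 to 39.8, 20.3 to 21.2 and 13.2 to 13.99 CPM, with APOA1 at 0 in every library. Only 3 of the hypoblast markers were tested, and in each comparison 2 were called higher and 1 was not called. With EPZ-6438 against N2B27 their log2 fold changes ran from -0.04 to 3.43, so the sum does not stand for every marker. The 8 trophectoderm and trophoblast markers summed to 32.2 to 33.6, 11.6 to 12.9 and 63.3 to 93.6 CPM, with CGA and VGLL1 at 0 in every library. HAVCR1 made up most of the PXGL sum, averaging 15.4 CPM with EPZ-6438, 4.18 CPM in N2B27 and 73.8 CPM in PXGL, and with EPZ-6438 against PXGL it was called lower while the other 4 tested markers, GATA3, GATA2, CDX2 and KRT7, were called higher. The 5 extraembryonic mesoderm markers summed to 71.3 to 79.8, 24.4 to 27.9 and 39.8 to 51.1 CPM, and the 4 neuroectoderm markers to 19.3 to 21.9, 9.98 to 11.3 and 14.3 to 14.5 CPM. Of the extraembryonic mesoderm markers only 2 were tested. Both were called higher with EPZ-6438 than in either other group, while in N2B27 against PXGL 1 was higher and 1 lower. The 4 fibroblast markers summed to 41.6 to 44.1, 53.2 to 55.0 and 13.8 to 19.01 CPM, with S100A4 at 0 in every library. The part of these cells or states in the changes of imprinted genes was not tested.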

How the data were processed

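RNA was sequenced from 9 libraries of H1 cells, and groups came from the sample titles. Per the labels' protocols, RNA was extracted with Trizol and ribosomal RNA was depleted, while another label names polyA RNA. The authors deposited a table of expected counts, estimated read counts per gene symbol that need not be whole. The submitters' processing notes name hg38 and the tools Trim Galore, DESeq2 and STAR 2.7.6a. For the counting program, annotation and strandedness the sources used here give nothing, so the split of reads between overlapping genes is uncertain.

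Expected counts were rounded, since 7.13% to 8.09% of values per library were not whole. Of 22640 genes with a count, edgeR's filterByExpr kept 15179. A single quasi-likelihood model (edgeR 4.0.16, R 4.3.3, TMM scaling, robust fit, no replicate block) was fitted to all 9 libraries, and 3 pairs of groups were compared at Benjamini-Hochberg adjusted p under 0.05. CPM used TMM-scaled library sizes, and RPKM divided them by the union of exons in GENCODE 29, to which all 35 members and 36547 of 40332 symbols matched. The gene coordinates are from that annotation (hg38). Replicate pairs differed by more than sampling noise (over genes with 20 or more counts, chi-square divided by its degrees of freedom was 2.57 at the lowest), and all libraries were kept. The script was checked on simulated counts for EPZ-6438 against N2B27 only. The simulated levels came from the N2B27 means with no outlying PXGL library, so the check does not cover that feature of the data. Limits from 3 counts, and 95% intervals, cover counting error only.

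Full statistics were due to called members with non-overlapping ranges, a change of 2-fold or more and 5 CPM or more on average in their higher group, and other members were described by values or counts. Of the regulators and further imprinted genes, up to 6 called genes with the smallest adjusted p per comparison were named, besides ZFP57, ZNF445, TRIM28, DPPA3, DNMT1, UHRF1 and the PRC2 core. The members and lists were chosen with earlier results of these data known, and the allele and promoter classes from general knowledge of imprinting. Alternatives were DESeq2 1.42.0 (size factors and test), other filters, a replicate block, a 1.5-fold requirement, fits of 2 groups only and leaving out single libraries.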

Additional observations from a re-analysis of the deposited data

How the results depend on the processing

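All 87 tested fold changes of imprinted genes were recomputed under each alternative, 1160 values in all. Of these, 1057 stayed on their side of the threshold, 72 lost a call and 31 gained one. No called value changed sign, while 30 values that were not called did. For EPZ-6438 against N2B27, all genes called went from 3752 to 724 with a 1.5-fold requirement (85.1% of calls higher, against 57.3%), 5641 with only the 2 groups fitted, and 2762 to 5770 when single libraries were left out, the highest without PXGL replicate 1. Members called higher went from 6 to 1 (1.5-fold) and 3 to 9 (libraries left out). Members called lower went from 2 to 0 (edgeR, 1.5-fold; 0 also at an unadjusted p under 0.05), 6 (2 groups) and 1 to 6 (libraries left out). For EPZ-6438 against PXGL, all genes went from 8515 to 2928 (1.5-fold) and 7599 to 9452 (libraries left out), members higher from 10 to 5 and 9 to 11, and members lower from 5 to 1 and 4 to 6. For N2B27 against PXGL, all genes went from 8505 to 2956 and 7663 to 9506, members higher from 12 to 4 and 11 to 14, and members lower from 7 to 1 and 4 to 7. A 1.5-fold requirement asks for more by construction, and the cause of the other shifts was not tested. Same-numbered libraries did not deviate together (correlations of -0.026 to 0.037). The labels do not say whether they share a culture or a batch, and these correlations cannot settle it. With a replicate block, all genes called were 3696 for EPZ-6438 against N2B27, 8489 for EPZ-6438 against PXGL and 8507 for N2B27 against PXGL, with 6, 12 and 13 members higher and 2, 5 and 6 lower. Under the block IGF2 lost its calls for EPZ-6438 against N2B27 and N2B27 against PXGL (adjusted p = 0.0619 and 0.0504). Calls were gained by PHLDA2 for EPZ-6438 against N2B27 (0.0385), by KCNQ1OT1 for N2B27 and for EPZ-6438 against PXGL (0.0150 and 0.0414) and by ZDBF2 for EPZ-6438 against PXGL (0.0330). A count of 0 allows up to 0.163 to 0.207 CPM at these depths, and the part of depth in the lost calls of IGF2 and CDKN1C was not tested.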

Other observations

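A second list held 48 further genes that are reported as imprinted in some tissue or species, of which 45 were in the table and 29 were tested. With EPZ-6438 against N2B27, 5 were higher and 3 lower, which is 27.6% of those tested beside 24.7% of all genes. ZC3H12C, an RNA-binding zinc finger gene, had 15.4, 15.51 and 16.3 CPM with EPZ-6438, 5.43, 4.64 and 5.00 CPM in N2B27 and 1.32, 1.15 and 1.5 CPM in PXGL, with no overlap between any of the groups. Its log2 fold change was 1.64 for the inhibitor against N2B27 (adjusted p = 5.95e-07) and 1.92 for N2B27 against PXGL (adjusted p = 2.94e-07). ATP10A, a lipid flippase gene at the edge of the Prader-Willi and Angelman region, had 20.6, 19.4 and 22.6 CPM with EPZ-6438, 8.29, 6.68 and 8.94 CPM in N2B27 and 2.14, 1.75 and 2.72 CPM in PXGL, in the same order and also without overlap. OSBPL5 and LPAR6 were higher with EPZ-6438 by 1.17 and 0.83 on the log2 scale. PHACTR2 was lower with EPZ-6438, at 56.2, 61.4 and 55.7 CPM, against 89.9, 98.6 and 93.6 CPM in N2B27 and 33.3, 33.1 and 37.4 CPM in PXGL. LIN28B, an RNA-binding protein that blocks let-7 maturation, and DNMT1 were lower by log2 fold changes of -0.39 and -0.22.

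For N2B27 against PXGL, 15 of these genes were higher and 4 lower, which is 65.5% of those tested beside 56% of all genes. Calls of at least 2-fold numbered 10 of the 29 genes tested, beside 18.3% of all genes tested. This list too was chosen with earlier results of these data known, so these shares are a description. PPP1R9A, a neighbour of the PEG10 locus, had 11.6, 10.6 and 13.7 CPM in N2B27, against 3.18, 3.01 and 3.39 CPM in PXGL, a log2 fold change of 1.90 (adjusted p = 2.89e-08). PEG13, a paternally expressed non-coding RNA, had 7.59, 6.54 and 5.87 CPM in N2B27, against 1.10, 1.92 and 1.89 CPM in PXGL, a log2 fold change of 2.02 (adjusted p = 1.22e-06). OSBPL5 was lower by a log2 fold change of -2.05 (adjusted p = 8.46e-07), with 1.53, 1.97 and 1.53 CPM in N2B27, against 5.65, 7.29 and 7.94 CPM in PXGL. With EPZ-6438 against PXGL, 12 of the further genes were higher and 2 lower, which is 48.3% of those tested beside 56.1% of all genes. The adjusted p-values are from edgeR's quasi-likelihood test over all genes tested.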
